A study of Homo sapiens with 6 samples.

Results

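The imprinted domain at the tip of the short arm of chromosome 11 holds the genes H19, IGF2, KCNQ1, KCNQ1OT1, CDKN1C and PHLDA2. Its chromatin loops in the human cell line HAP1 are described here. A loop was counted as part of the domain when at least 1 of its anchors overlapped chromosome 11, 1900000 to 3100000 (hg19), a stretch of 1.2 Mb. This gave 35 of the 46849 loops of the whole list, against 2151 on the rest of chromosome 11. Both anchors lay inside the stretch for 20 of the 35, the lower anchor lay below it for 9, and the upper anchor reached beyond it for 6.

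The contacts were measured by Micro-C, in which micrococcal nuclease cuts fixed chromatin to nucleosomes before neighbouring ends are ligated, so that ligated pairs report proximity in the nucleus. The cells were wild-type HAP1, an adherent line derived from the near-haploid leukaemia line KBM-7, and per the labels' protocols diploid cells were sorted from it by a DNA dye before fixation. The 6 replicates form 1 group with no treatment, and nothing in the labels says whether they were separate cultures. They were pooled into 1 list, so no value below has a spread between replicates, and the list does not tell parental copies apart.

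Genomic imprinting leaves a gene active on the copy inherited from only 1 parent. H19, a long non-coding RNA, is made from the maternal copy, and IGF2, a fetal growth factor, from the paternal copy. Between them, close to H19, lies a control region that the insulator protein CTCF binds on the maternal copy, where it is unmethylated, and which keeps IGF2 from enhancers on the far side of H19. Farther along, KCNQ1 encodes a voltage-gated potassium channel. KCNQ1OT1, a non-coding RNA made from the paternal copy, runs antisense inside KCNQ1 and silences neighbours in cis. Among these neighbours are CDKN1C, which encodes the cell cycle inhibitor p57, and PHLDA2, which restrains growth of the placenta. CTCF and cohesin are found at the anchors of many loops. HAP1 comes from cells that were haploid for nearly all chromosomes, so the 2 copies of a chromosome in a diploid HAP1 cell are as a rule copies of the same parental chromosome. Which parental chromosome 11 HAP1 carries, its methylation and the expression of these genes were not analysed here.

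The domain's loop anchor with the most loops lay just beyond the upper end of H19, the end at which this gene starts, and the sequence upstream of H19 is therefore shown first. Of the 6 genes, H19 had an entry in the RefSeq promoter table used here (GRCh38.p14, chr11:2001217-2001516, minus strand). It covers 250 bases before the start and 50 after it, and is printed 5′ to 3′ along the gene, with GAGGG in capitals.
H19: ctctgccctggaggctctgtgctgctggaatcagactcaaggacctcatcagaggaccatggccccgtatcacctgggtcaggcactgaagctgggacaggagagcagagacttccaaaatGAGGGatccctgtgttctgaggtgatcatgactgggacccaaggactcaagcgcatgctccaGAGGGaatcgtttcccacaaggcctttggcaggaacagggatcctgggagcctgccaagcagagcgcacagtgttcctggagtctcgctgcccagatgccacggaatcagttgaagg
GAGGG is CCCTC read on the other strand, the short core for which CTCF is named. It matched 2 times here on either strand, and 71.2% of the 35116 promoters of the table held at least 1 match, so a match is common. Whether CTCF binds there was not analysed here. The window was 57.7% G and C and held 6 CG dinucleotides. The H19 entry of that build is 6.09 kb long, whereas the span used here for hg19 is 3 kb, so the start shown need not be that of the hg19 span.

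In these loops, contacts stood farther above their surroundings than in the list as a whole. The observed count of a loop is the number of contacts in the pixel where its anchors cross. Its strength is that count over the expectation from the ring of pixels around it, the donut expectation. Contact depth is taken from the donut expectation unless stated otherwise. The domain's median strength was 6.69 (95% order-statistic interval of the median 5.33 to 8.13, quartiles 4.49 and 11.2, range 2.32 to 20.6). Here and below, intervals of medians take loops as independent draws. Many of these loops share anchors, so the coverage is not assured, and no spread between replicates is included. Over all loops the median was 3.55, and over the rest of chromosome 11 it was 3.76. Contacts numbered at least 4 times the donut expectation in 27 of the 35 loops, where 42.0% of all loops did so. Each of the 4 q-values that the authors' deposited table gives against the surroundings was at or below 0.1 for 30 of the 35, and 72.0% of all loops met this limit.

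The domain's loops were also longer than most, with a median span of 225 kb against 160 kb over all loops, and longer loops have higher ratios in this list. Strength was therefore set against loops of like span and equal anchor width. The median difference was 0.42 on the log2 scale (interval 0.08 to 1.04), that is 1.33-fold, and 28 of the 35 loops lay above 0. The rest of chromosome 11 stood at 0.06. Within span classes, the 9 domain loops of 100 to 200 kb had a median strength of 9.13 where all loops of that class had 3.79. The 14 domain loops of 200 to 500 kb had 6.15 against 4.48, and the 7 loops under 100 kb had 3.97 against 2.63.

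**Figure D1:**
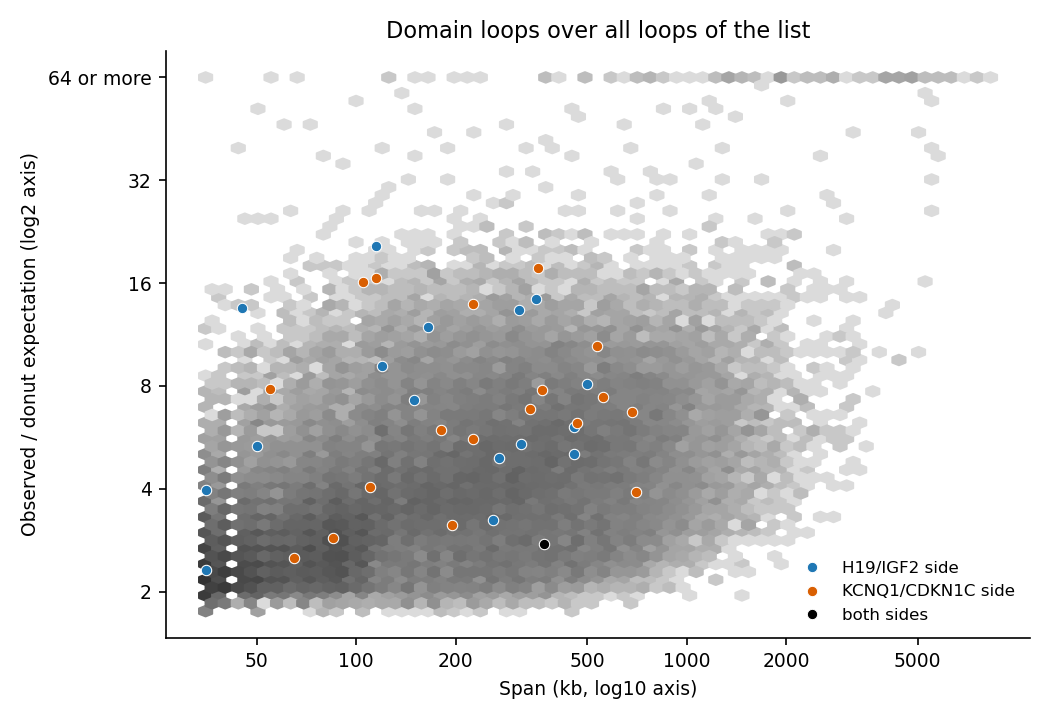
Each point is 1 of the 35 domain loops, placed by span (log10 axis) and by observed contacts over donut expectation (log2 axis), with all 46849 loops as grey density and ratios of 64 or more drawn at 64. Blue points lie on the H19/IGF2 side and orange ones on the KCNQ1/CDKN1C side, and 28 of the 35 lie above the median of loops of like span.

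The quartiles of the contact counts themselves lay farther apart than in the list, though the range did not. The median observed count was 27 contacts (quartiles 20.5 and 104, range 13 to 187) against 31 over all loops (quartiles 21 and 48, range 8 to 1756). Among loops of 100 to 200 kb the median count was 103 in the domain and 36 over all loops. Under 100 kb it was 44 in the domain against 40. The longer classes went the other way, with 22 against 27 at 200 to 500 kb and 16 against 20 at 500 kb to 1 Mb. The median donut expectation was 6.14 against 8.65. Against loops of like span, the expectation of the 33 loops with 5 kb anchors was lower by a median log2 difference of -0.31 (interval -0.65 to 0.07), and 12 of the 33 lay above 0. This median combined unlike parts of the domain. It was 0.04 (interval -0.70 to 0.57, 9 of 16 loops above 0) for loops below the middle of a 40 kb run just past IGF2, the H19/IGF2 side, and -0.45 (interval -0.85 to -0.07, 3 of 17 above 0) for loops above it, the KCNQ1/CDKN1C side. The intervals overlap and the difference was not tested. The observed counts of all 33 loops lay a median of 0.13 above those of like span, so the sign depends on which of these values is taken for depth. The share of the low expectation in the high ratios was not tested.

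**Figure D2:**
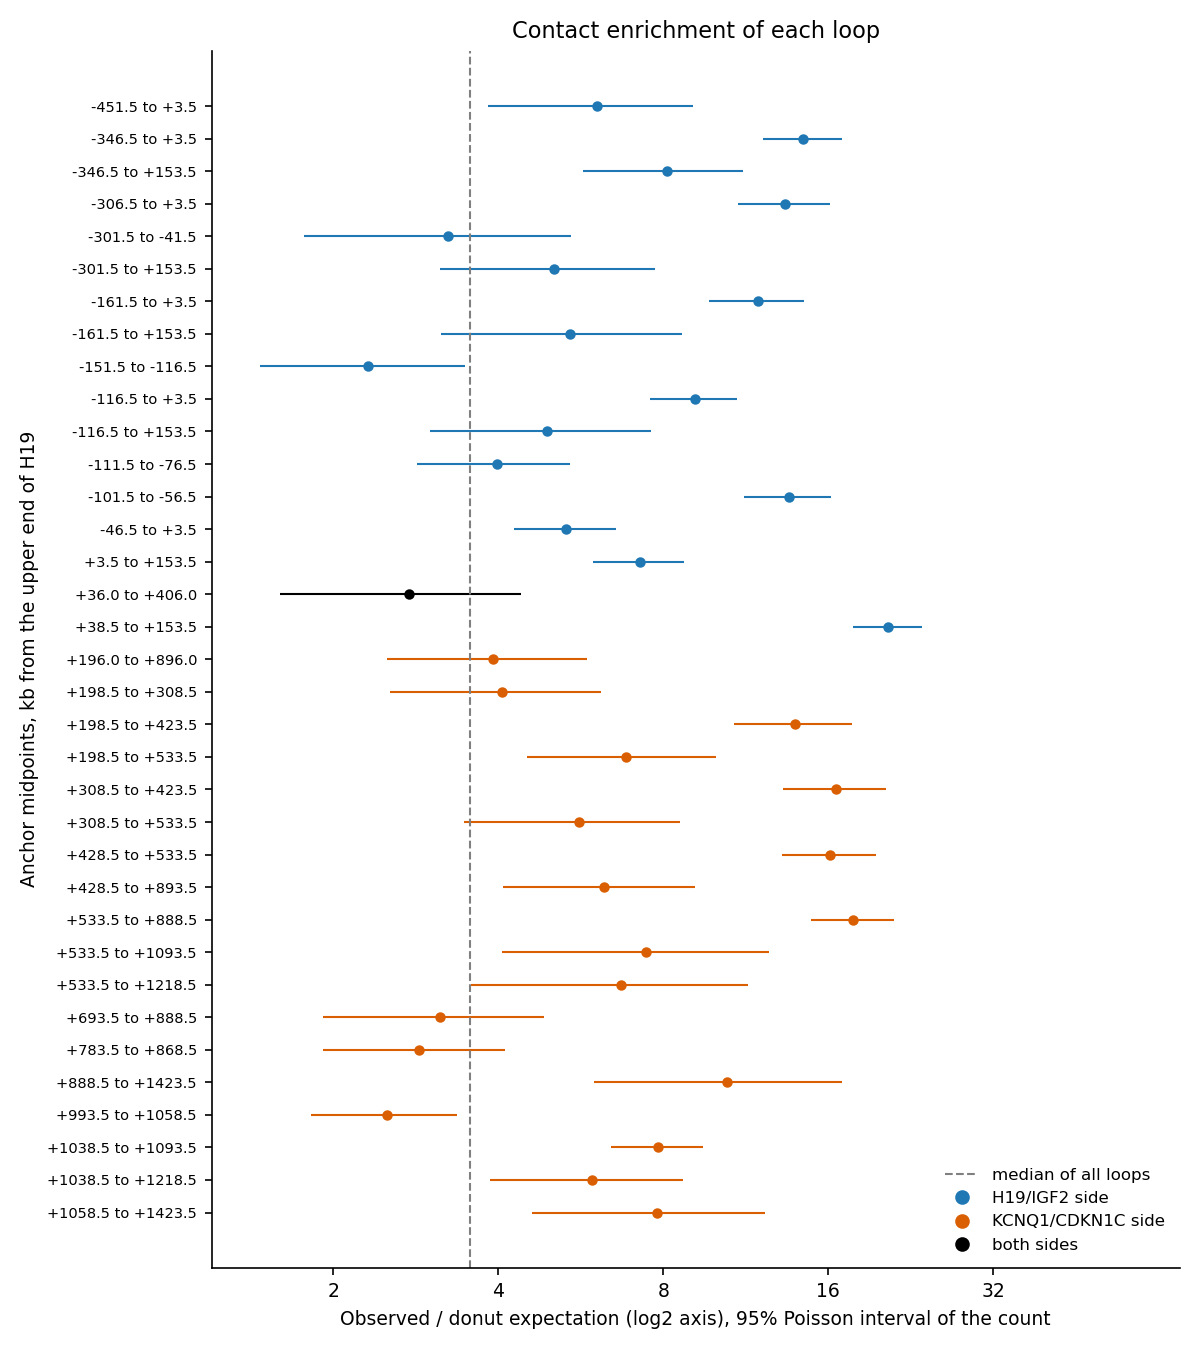
Observed contacts over donut expectation (log2 axis) for each of the 35 loops, with the exact 95% Poisson interval of the count, named by the distance of their anchor midpoints from the upper end of H19 in kb. The dashed line is the median of all loops, 3.55. The intervals of 2 loops lie wholly below it, those at 2.32 and 2.50, and the highest point is 20.6.

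H19 itself held no anchor in its span of 2016000 to 2019000, but the anchor at 2020001 to 2025000 began 1 kb beyond it. This 3 kb span is shorter than the 6.09 kb H19 entry of GRCh38. Whether the longer entry reaches that anchor was not analysed here. That anchor held 7 loops, the most in the domain, and 1.63% of all merged anchors in the list held as many. Of the 7, 6 ran to lower coordinates, away from IGF2. Together the 7 loops had 698 observed contacts, with strengths from 5.33 to 14.4 and spans from 50 to 455 kb. All 7 met the limit of 0.1 on each q-value of the authors' deposited table, which 72.0% of all loops met.

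The loop from the H19 anchor to 1670001 to 1675000, 350 kb away, had 147 contacts against 10.2 expected (strength 14.4, 95% interval 12.2 to 16.9). The loop to 1710001 to 1715000 had 107 against 8.01 (13.4, interval 10.9 to 16.1). The loop to 1855001 to 1860000 had 103 against 8.66 (11.9, interval 9.71 to 14.4). The intervals of these 3 ratios overlapped, with spans of 165 to 350 kb. The intervals here come from the exact Poisson interval of the count, take the expectation as fixed and cover counting error only.

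Nearer to H19 the ratios were lower. The loop to 1900001 to 1905000 had 121 contacts against 13.3 (strength 9.13, interval 7.57 to 10.9), and that to 1970001 to 1975000, the shortest at 50 kb, had 87 against 16.3 (5.33, interval 4.27 to 6.57). The longest, to 1565001 to 1570000, had 23 contacts against 3.80 (6.05, interval 3.84 to 9.08). Against loops of like span, the loops of 120, 50 and 455 kb stood at 1.11, 1.04 and 0.08 on the log2 scale. Those of 165, 310 and 350 kb stood at 1.49, 1.38 and 1.43. In the order of genes, MRPL23, which encodes a mitochondrial ribosomal protein, TNNT3 (a fast skeletal muscle troponin), LSP1 (a leukocyte protein), TNNI2 (another troponin) and SYT8 follow H19 on this lower side. Which of them these anchors touch was not analysed here.

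IGF2 (2150000 to 2171000) held 1 merged anchor, at 2170001 to 2175000, which overlapped the upper end of its span. Its 6 loops all ran to lower coordinates, past or towards H19, and none ran towards KCNQ1. The strongest loop of the whole domain, by count as well as by ratio, was among them. It joined 2055001 to 2060000, between H19 and IGF2, with the IGF2 anchor over 115 kb, and had 187 contacts against 9.09 expected (strength 20.6, interval 17.7 to 23.8). It merged 20 significant pixels, the most in the domain, where the median of the domain was 4 and that of all loops 3.

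A loop also joined the H19 anchor directly with the IGF2 anchor, 150 kb apart, with 110 contacts. Its strength depended on the surroundings more than that of any other loop at these 2 anchors. Against 15.2 expected from the donut it was 7.26 (interval 5.96 to 8.75), against the horizontal surroundings (7.79 expected) 14.1, and against the vertical ones (51.2 expected) 2.15. It rested on 1 pixel, and the largest of its 4 q-values in the authors' deposited table was 1.13e-06.

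The vertical expectation exceeded the horizontal one for all 6 loops at the IGF2 anchor and for 6 of the 7 at the H19 anchor (the loop between them counts in both), where 50.4% of all loops had the vertical one higher. Over the H19/IGF2 side as a whole this held for 12 of 16 loops, with a median vertical over horizontal expectation of 1.45. On the KCNQ1/CDKN1C side it held for 12 of 18, with a median of 1.03, and over all loops the median was 1.00. The 2 surroundings are strips of pixels along the row and the column of a loop, and which of its anchors each strip follows is not stated in the file.

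**Figure D3:**
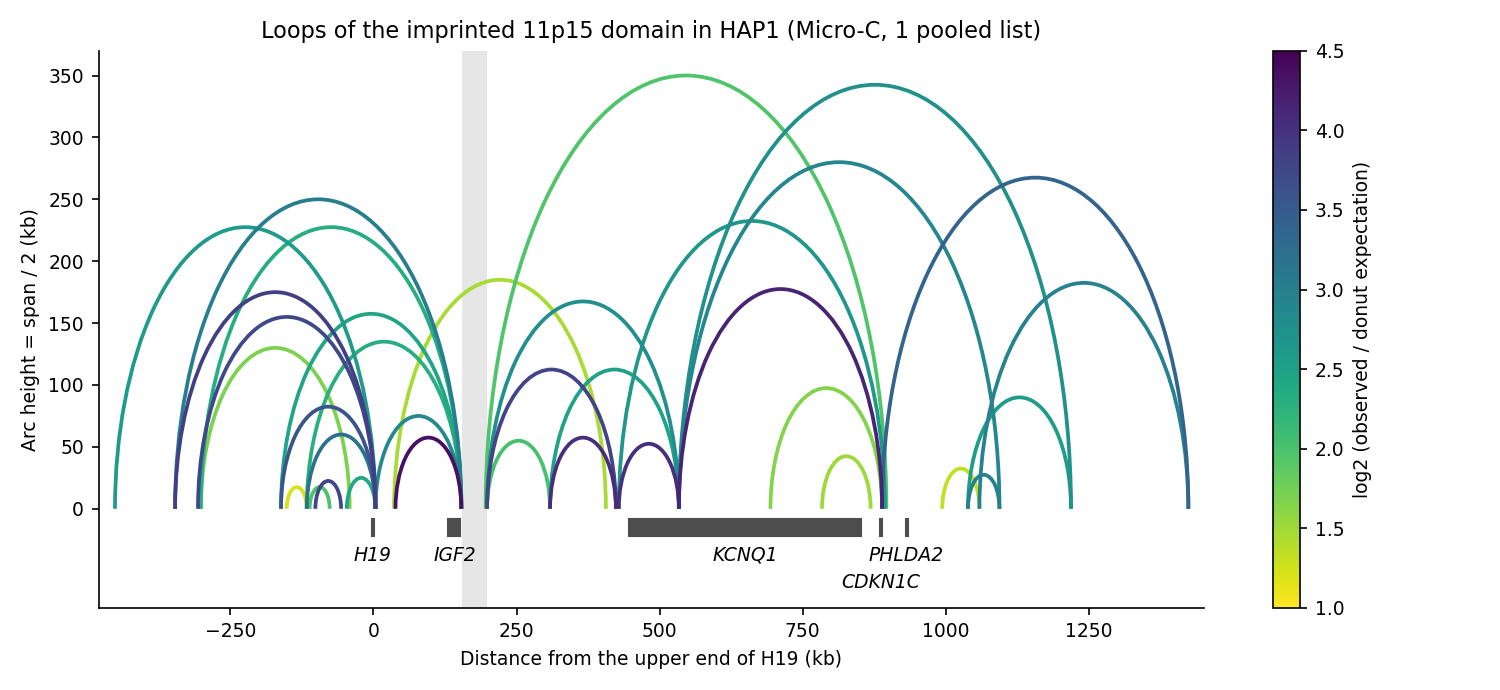
Each arc is 1 of the 35 loops, drawn between its anchor midpoints by distance from the upper end of H19 in kb, with its span divided by 2 as height and a colour for log2 strength (dark is strong). Grey boxes are the gene spans, and the pale band is the 40 kb after the IGF2 anchor. A single loop, of strength 2.75, crosses that band.

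The anchor beside H19, called the H19 anchor here, and the IGF2 anchor shared 4 loop partners. The H19 anchor had 7 loop partners and the IGF2 anchor 6. At each of the 4, contacts with the H19 anchor were more numerous and stood farther above expectation than those with the IGF2 anchor. From the partner at 1670001 to 1675000 there were 147 contacts with the H19 anchor and 37 with the IGF2 anchor (strengths 14.4 and 8.13). From 1710001 to 1720000, where adjoining anchors were counted as the same, there were 107 and 21 (13.4 and 5.06). From 1855001 to 1860000 there were 103 and 17 (11.9 and 5.40), and from 1900001 to 1905000 there were 121 and 20 (9.13 and 4.92).

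The 95% intervals of the paired ratios were apart at 3 of the 4 partners and overlapped slightly at 1900001 to 1905000 (7.57 to 10.9 against 3.00 to 7.60). The loops to the IGF2 anchor were longer at each partner, with spans of 500, 455, 315 and 270 kb against 350, 310, 165 and 120 kb. The part of this distance in the lower ratios was not tested. Set against loops of like span, the values of the H19 anchor were 1.43, 1.38, 1.49 and 1.11 on the log2 scale. Those of the IGF2 anchor were 0.50, -0.18, 0.07 and -0.02. With the expectation taken from each of the 4 surroundings in turn, the value of the H19 anchor was the higher in 16 of 16 comparisons, by 1.33 to 2.80-fold. These comparisons reuse the same 4 pairs of observed counts, so they are not 16 separate results. The 4 pairs share their anchors and the same pooled libraries, and are not replicates of each other. No test over replicates was possible.

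**Figure D4:**
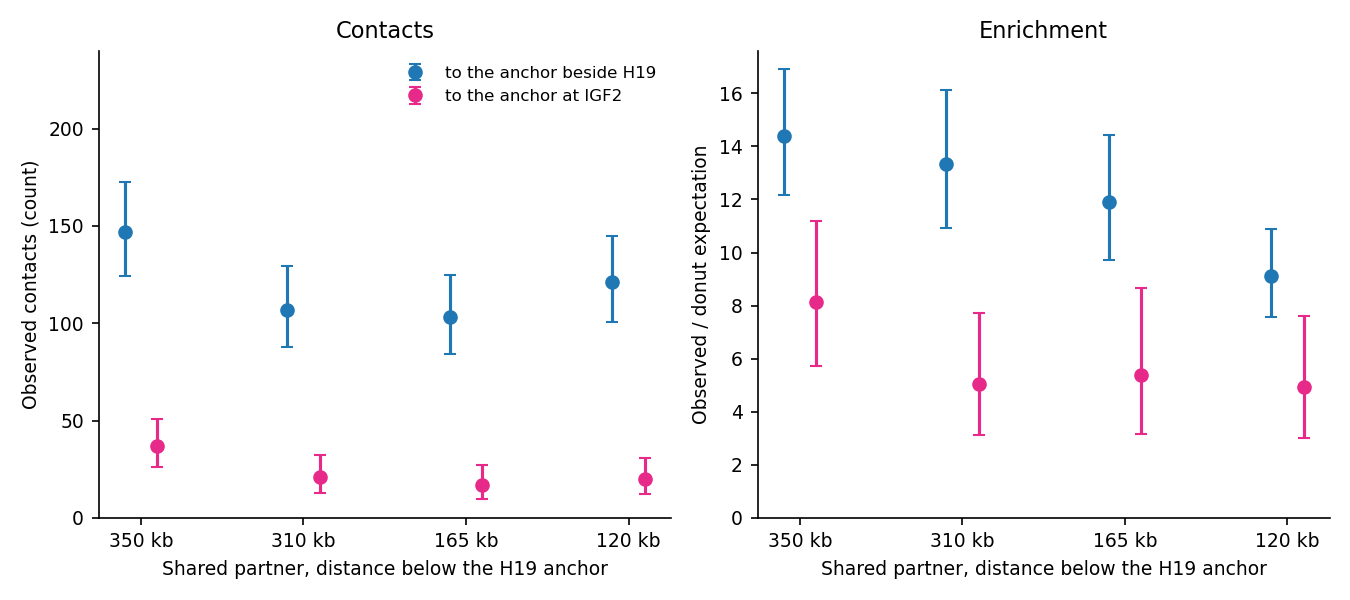
Observed contacts (left) and observed over donut expectation (right) of the 4 partners that loop to both anchors, with exact 95% Poisson intervals of the counts, for the anchor beside H19 (blue) and the anchor at IGF2 (pink). Contacts with the anchor beside H19 number 103 to 147 and those with the IGF2 anchor 17 to 37.

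Past IGF2, loops nearly stopped. From 2175000 to 2215000, a run of 40 kb, each position was spanned by 1 loop only, the lowest number in the domain. In the order of genes, INS (insulin) and TH (tyrosine hydroxylase, the first enzyme of catecholamine synthesis) follow IGF2 here. Over the domain a position was spanned by a median of 5 loops (quartiles 5 and 7, highest 12), and over all chromosomes by a median of 4. Positions spanned by at most 1 loop made up 3.73% of the domain, 20.6% of chromosome 11 and 22.3% of all chromosomes, so a gap of this kind is common in the list.

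The loop that crossed this run was the only one of the 35 to join the H19/IGF2 side with the KCNQ1/CDKN1C side, when the sides are parted in the middle of the run, a choice made after the values were seen. It lay between 2050001 to 2060000 and 2420001 to 2430000, with 10 kb anchors and 17 contacts against 6.19 expected (strength 2.75, interval 1.60 to 4.40). Against loops of like span and anchor width it stood at 0.08 on the log2 scale. In the authors' deposited table its q-values ranged from 0.115 to 0.492, and no other of the 35 loops had a q-value as high as the latter. With a limit of 0.1 on each q-value, no loop crossed. The 16 loops on the H19/IGF2 side and the 18 on the KCNQ1/CDKN1C side had median strengths of 6.65 (interval 4.92 to 13.4) and 6.77 (interval 4.06 to 10.4). Their median observed counts were 63.5 and 26 contacts. Against loops of like span, strength stood at 0.75 (interval -0.01 to 1.43, 12 of 16 above 0) on the H19/IGF2 side and 0.37 (interval 0.07 to 1.51, 15 of 18 above 0) on the other, on the log2 scale, that is 1.68-fold and 1.29-fold. These intervals overlap, and the difference between the sides was not tested.

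**Figure D5:**
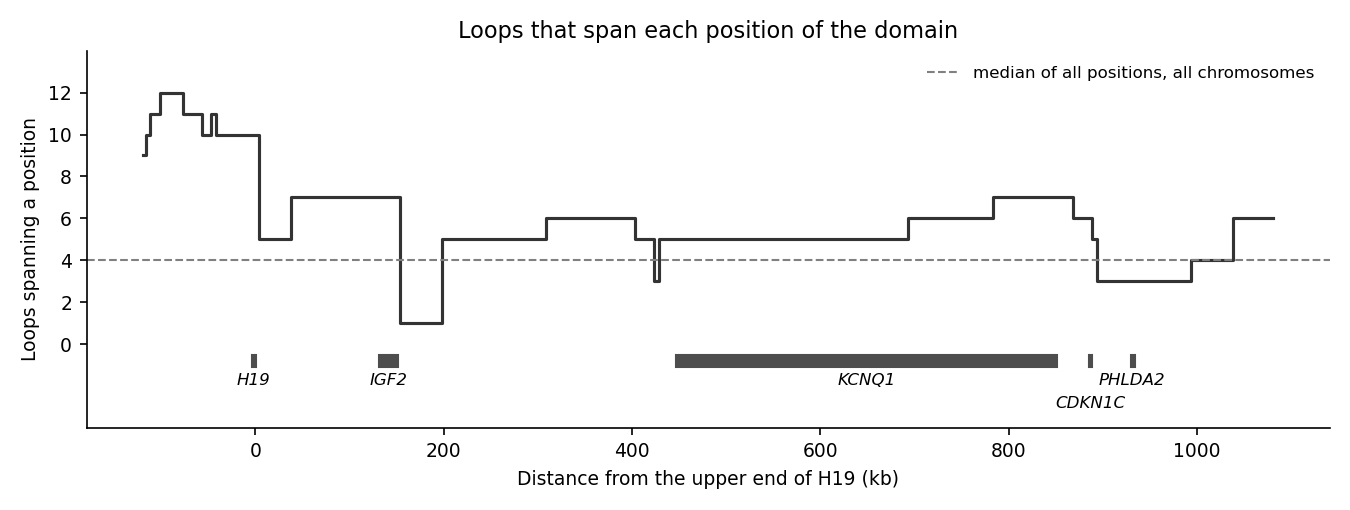
Number of loops that span each position of the domain (steps of 5 kb) by distance from the upper end of H19 in kb, with gene spans below and the median of all chromosomes, 4, as the dashed line. The count is highest below H19 (12), falls to 1 just above IGF2 and is 3 over PHLDA2.

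On the other side of this run, 5 anchors formed a nearly complete grid. With anchors up to 5 kb apart counted as the same, these were 2210001 to 2220000, 2325001 to 2330000, 2440001 to 2450000, 2550001 to 2555000 inside KCNQ1, and 2905001 to 2920000 at CDKN1C. Of the 10 possible pairs, 9 were joined by a loop, which closed 7 triangles. The pair without a loop was 2325001 to 2330000 with the CDKN1C anchor, 580 kb apart. On the H19/IGF2 side, 15 of 36 pairs among 9 anchors were joined. The anchors were taken from the loops themselves (at least 3 loops each in the first set and 2 in the second), so these shares are descriptions of the layout only.

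Within the grid, neighbouring anchors had the strongest loops, with 1 exception. The loop from 2325001 to 2330000 to 2440001 to 2445000 had 87 contacts against 5.27 (strength 16.5, interval 13.2 to 20.4). That from 2445001 to 2450000 to the KCNQ1 anchor had 105 against 6.51 (16.1, interval 13.2 to 19.5). The exception was the first pair, 2215001 to 2220000 with 2325001 to 2330000, which had 22 contacts against 5.42 (4.06, interval 2.54 to 6.15), whereas the loop that passed over it to 2440001 to 2445000 had 66 against 4.75 (13.9, interval 10.8 to 17.7). In the order of genes, ASCL2, a transcription factor gene of the placenta, the tetraspanin genes TSPAN32 and CD81, TSSC4 and the ion channel gene TRPM5 lie between TH and KCNQ1.

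KCNQ1 (2466000 to 2870000) is the longest of the genes and held anchors of 8 loops, none of which lay wholly inside it. Of these, 6 belonged to the anchor at 2550001 to 2555000, 3 running to each side. Its strongest loop, and the second of the domain by ratio, reached the CDKN1C anchor at 2905001 to 2910000 over 355 kb. It had 132 contacts against 7.43 expected (strength 17.8, interval 14.9 to 21.1) over 19 merged pixels. Against loops of like span it stood 1.74 higher on the log2 scale.

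The same KCNQ1 anchor reached past CDKN1C and PHLDA2 to 3110001 to 3115000 with 14 contacts (strength 7.43, interval 4.06 to 12.5) and to 3235001 to 3240000 with 13 (6.69, interval 3.56 to 11.4). Each rested on 1 pixel and few contacts, and their intervals are accordingly wide. Towards lower coordinates it joined 2215001 to 2220000 (27 contacts, strength 6.85) and 2325001 to 2330000 (21 contacts, strength 5.61).

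The other 2 loops at KCNQ1 had lower ratios. That from 2710001 to 2715000 to the CDKN1C anchor had 20 contacts against 6.38 (strength 3.13, interval 1.91 to 4.84), stood at -0.53 relative to loops of like span on the log2 scale, and had a highest q-value of 0.211 in the authors' deposited table. That from 2800001 to 2805000 to 2885001 to 2890000 had 29 against 10.1 (2.86, interval 1.92 to 4.11). It spanned 85 kb, stood at -0.05 relative to loops of like span, and had a highest q-value of 0.00625. KCNQ1OT1 lies inside KCNQ1 in the gene table. No span of its own in hg19 was used here, so no loop is assigned to it.

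CDKN1C (2904000 to 2907000) was overlapped by the anchor at 2905001 to 2910000, which held 3 loops. Besides the loops from KCNQ1 already given, it joined 3440001 to 3445000, 535 kb higher, with 16 contacts against 1.53 (strength 10.4, interval 5.97 to 17.0). Within 5 kb of the gene the count was 5 loops, since the next anchor, 2910001 to 2920000, took a loop from 2445001 to 2450000 (26 contacts, strength 6.25, interval 4.08 to 9.15) and the longest of the domain, 700 kb from 2210001 to 2220000 (24 contacts, strength 3.91, interval 2.51 to 5.82). In all, 4 of these 5 loops ran to lower coordinates, the side of KCNQ1.

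PHLDA2 (2949000 to 2951000) held no anchor, and none lay within 25 kb of it. The nearest ended 29 kb away, at 2910001 to 2920000, and 3 loops passed over the gene. A loop is listed only where contacts exceed all 4 surroundings, so contacts of PHLDA2 below the caller's limits are not shown by this list. In the order of genes SLC67A1 (also SLC22A18, a transporter) stands between CDKN1C and PHLDA2. On the far side of PHLDA2, where the histone chaperone gene NAP1L4, CARS1, which encodes cysteinyl-tRNA synthetase, and OSBPL5 follow, 4 loops lay wholly above it. The strongest joined 3055001 to 3060000 with 3110001 to 3115000 (108 contacts, strength 7.84, interval 6.43 to 9.46).

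The 5 longest loops spanned 500 to 700 kb and had 13 to 37 contacts, the best supported being the loop of 500 kb from 1670001 to 1675000 to the IGF2 anchor. At the other end, a loop of 45 kb between 1915001 to 1920000 and 1960001 to 1965000 had 121 contacts against 8.94 (strength 13.5, interval 11.2 to 16.2) and stood farther above loops of like span than any other of the domain, by 2.44 on the log2 scale. The weakest loop by ratio ended at the lower edge of the domain, from 1865001 to 1870000 to 1900001 to 1905000, with 23 contacts against 9.92 (2.32, interval 1.47 to 3.48).

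The edges of the domain fell among other loops. Just below it, outside the rule, 1715001 to 1720000 and 1850001 to 1855000 were joined by 107 contacts (strength 12.9), and just above it 3110001 to 3120000 and 3230001 to 3240000 by 58 (strength 2.70). The domain held 29.2 loops per Mb, counting each loop with an anchor in it. Windows of the same length over all chromosomes that hold a loop had a median of 20.8 per Mb, and 20.0% of these 2351 windows held at least as many as the domain. With loops counted by midpoint, the domain held 22.5 per Mb, and 26.4% of windows held at least as many. By lower anchor it held 21.7 per Mb, and 30.3% of windows held at least as many. The domain's 24 merged anchors included 13 (54.2%) with at least 2 loops, against 45.9% over the list, and 3 with at least 5 (12.5% against 6.71%). Those 3 are the anchors beside H19, at IGF2 and inside KCNQ1.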

How the data were processed

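Micro-C was made from 6 replicates of diploid, wild-type HAP1 cells, and the authors deposited 1 loop list for all of them. BWA and the hg19 build are named in the submitters' processing notes, and juicer_tools 1.22.01 per the file headers. What BWA was used for, how replicates were pooled, at which depth they were sequenced and how the loop caller was set is not given in the sources used here. Per the file headers the deposited values are the observed contact count of each loop (raw), 4 expected counts (a signal on the same scale, for the donut, lower-left, vertical and horizontal surroundings), a q-value against each, the count of merged pixels, and positions and cluster radius in bp. Starts were shifted to 1-based positions.

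From these, ratios, exact Poisson intervals, order-statistic intervals of medians, and differences from the median of loops of like span (40 bins for each anchor width) were computed with Python 3.11.15 (scipy 1.17.1, pandas 2.3.3, numpy 2.4.6), with plots by matplotlib 3.10.9. Anchors overlapping by at least 1 bp were merged over the whole list. Gene spans are given to the nearest kb, and other genes by order in RefSeq (GRCh38.p14, where 22 of 22 listed symbols matched). The functions for like-span differences and for intervals of medians were tested on simulated independent values. Those for merging anchors and counting spanning loops were checked on loops of another chromosome. No test was made, since the list does not tell replicates apart and loops of 1 list share libraries.

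The domain, its genes and the lists were chosen with earlier results of these data known. Named loops are those at or nearest the genes, the 5 highest by count and by ratio, the 5 longest, those of the 5 anchors with most loops, and any joining both sides. The sides, the grid, the shared partners, the loop-spanning profile, the horizontal and vertical comparison, the motif and further loops named were chosen after seeing the data.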

Additional observations from a re-analysis of the deposited data

How the results depend on the processing

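Of 57 alternative values, 34 concerned the main results, and 29 of these stayed within 1.5 times a count or within the interval of a median. With both anchors required inside the domain, the count was 20 loops in place of 35. With 10 kb anchors only, 2 loops were left, that is 1.67 per Mb, and their median strength was 3.33. Taken from observed counts, the depth difference was 0.13 on the log2 scale in place of -0.31, a change of sign whose cause was not tested. Over its 9 alternatives the median strength ran from 3.33 to 7.78, beside 6.69 as reported. Against loops of like span the median difference ran from 0.37 to 0.65, the values with lower-left, horizontal and vertical expectations having been added after seeing the data. The count of loops at H19 was 0 with an anchor required in its span and 7 within 5 kb. That at CDKN1C was 3, then 5 within 5 kb and 6 within 25 kb, and that at PHLDA2 was 0 at each distance. The midpoint of IGF2 and KCNQ1 was spanned by 5 loops, of which 3 had 5 kb anchors. No paired analysis was possible because the list pools the replicates, and for the same reason no replicate could be left out. Counting error limits single loops: at 13 contacts, the lowest count, the 95% interval of the strength was 3.56 to 11.4.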
